A study of Mus musculus with 45 samples.

Results

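The heart ventricles of adult mice were compared with those of midgestation embryos (E12.5, where E counts days of gestation), across all genes named on the array. The comparison used 12 of the 45 arrays of the study, and the rule took the arrays by their labels alone. Each stage had left and right ventricles from replicates numbered 1 to 3, and the left and right array of a number were combined to their mean, so that n = 3 per stage. All mice were wild-type CD1, an outbred strain, with no gene altered and no treatment. An E12.5 replicate pooled 10 to 20 hearts, whereas an adult replicate was 1 heart, and the adult age is not stated in the labels. Hearts at E14.5 (10 to 20 per replicate), E18.5 (3 to 5 per replicate) and day 3 after birth (1 heart per replicate) were used to place each change in time. Adult and newborn hearts were frozen and pulverised before RNA extraction, so that this handling and the stage cannot be told apart for them.

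At E12.5 the ventricles already pump, are made of spongy trabeculae with a thin compact wall, and grow by division of their muscle cells in a low-oxygen embryo that feeds on glucose and lactate. Around birth oxygen and dietary fat rise, the muscle cells stop dividing and afterwards grow in size. The mature ventricle works with other isoforms of the contractile proteins, with transverse tubules and a large sarcoplasmic reticulum, and burns mainly fatty acids.

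Values are log2 probe set intensities as summarised by the authors with RMA, so that 1 unit is a 2-fold change, and each gene is read from its probe set of highest mean, taken across the 45 arrays. Each difference below is adult minus E12.5 in log2 units, with the standard error (SE) of a limma fit over the 9 stages. A gene is called at a Benjamini-Hochberg adjusted p under 0.05 over 18193 genes. Of these, 6258 were higher in the adult (34.4%) and 5932 were lower (32.6%). At least a 2-fold change was called for 1628 genes upward (8.95%) and for 2447 genes downward (13.5%). The median gene differed by 0.07, and 13294 genes had values that did not overlap between the stages, so that a call by itself says little here and the sizes carry the description. Scaling each array to 25 housekeeping genes moved the median to 0.59 and the calls to 12115 higher and 3139 lower. Rises then made up 79.4% of the calls instead of 51.3%. These 25 genes were not level themselves: without scaling 16 were lower in the adult, 7 higher and 2 not called, with a median of -0.31. From day 3 to the adult 15 of them were called lower and 3 higher. Counts of list members under that scaling, given below, are to be read beside these 12115 rises and 3139 falls among 18193 genes. The calls of small changes depend on the choice of scaling. Among the genes named below, falls as large as that of Tbx20 (-0.67) were no longer called with it. The balance of rises and falls of at least 2-fold placed after day 3 depends on that choice too. The median probe set of the 12 arrays read 5.38 to 5.46. A gene that starts or ends near that level is not shown to be above background there, so that its difference gives no exact fold and may understate the change. Levels of different genes are not compared, because probe sets differ in response.

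The ventricular markers Myl2, the ventricular regulatory myosin light chain, and Actc1, the cardiac actin, lay near the top of the scale in every sample. Myl2 read 14.91, 14.90 and 14.93 at E12.5 and 14.99, 14.97 and 14.99 in the adult, a difference of 0.07 ± 0.07 (adjusted p = 0.37, limma), and Actc1 differed by 0.09 ± 0.09 (adjusted p = 0.41, limma), with 0.59 and 0.61 and a call for both under housekeeping scaling. Both are close to the highest values of the arrays, where a change is hard to read. The right ventricle arrays of adult replicates 2 and 3 stood apart. Replicate 3 had high atrial genes (Myl7 12.86, against 6.53 in replicate 1), and replicate 2 had high matrix and adipocyte genes (Adipoq 9.40, Cilp 10.44). Replicate 2 of the adult was also the only adult replicate with high Xist, at 10.52 against 6.46 and 6.08 in the others. Values without those 2 arrays are given where a result rests on them. At the stages between, left ventricle 2 of E14.5 had the highest red cell genes and left ventricle 2 of E18.5 the highest lung, thymus and liver genes. Without these and the 2 adult arrays, 2716 genes were called from E12.5 to E14.5, 4873 from E14.5 to E18.5, 3277 from E18.5 to day 3 and 8890 from day 3 to the adult, against 2415, 5563, 3682 and 8872 with all arrays. The RNA came from whole ventricle, so that fewer cells of a type and less RNA per cell cannot be told apart for any gene below.

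The 30 largest rises ran from 5.15 for Ces1d to 7.98 for Myom2, and the 30 largest falls from -5.53 for Spc25 to -9.84 for Hbb-y. A call and stages that do not overlap were part of the choice of these 60 genes and are no finding about them. Among the rises were proteins of the muscle fibre (Myom2, Myot, Ankrd23, Cmya5, Hspb6), of energy transfer and fat storage (Ckmt2, Plin5, Perm1) and of excitation (Kcnip2), besides genes of immune cells (H2-Aa) and vessels (Rgs5, Rbp7). Of the 30 rises 10 belonged to gene lists used below and 20 to none. Of the 30 falls 20 belonged to a list, among them the 3 embryonic globins, the fetal troponin Tnni1 and 8 genes of mitosis, and 10 to none.

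**Figure D1:**
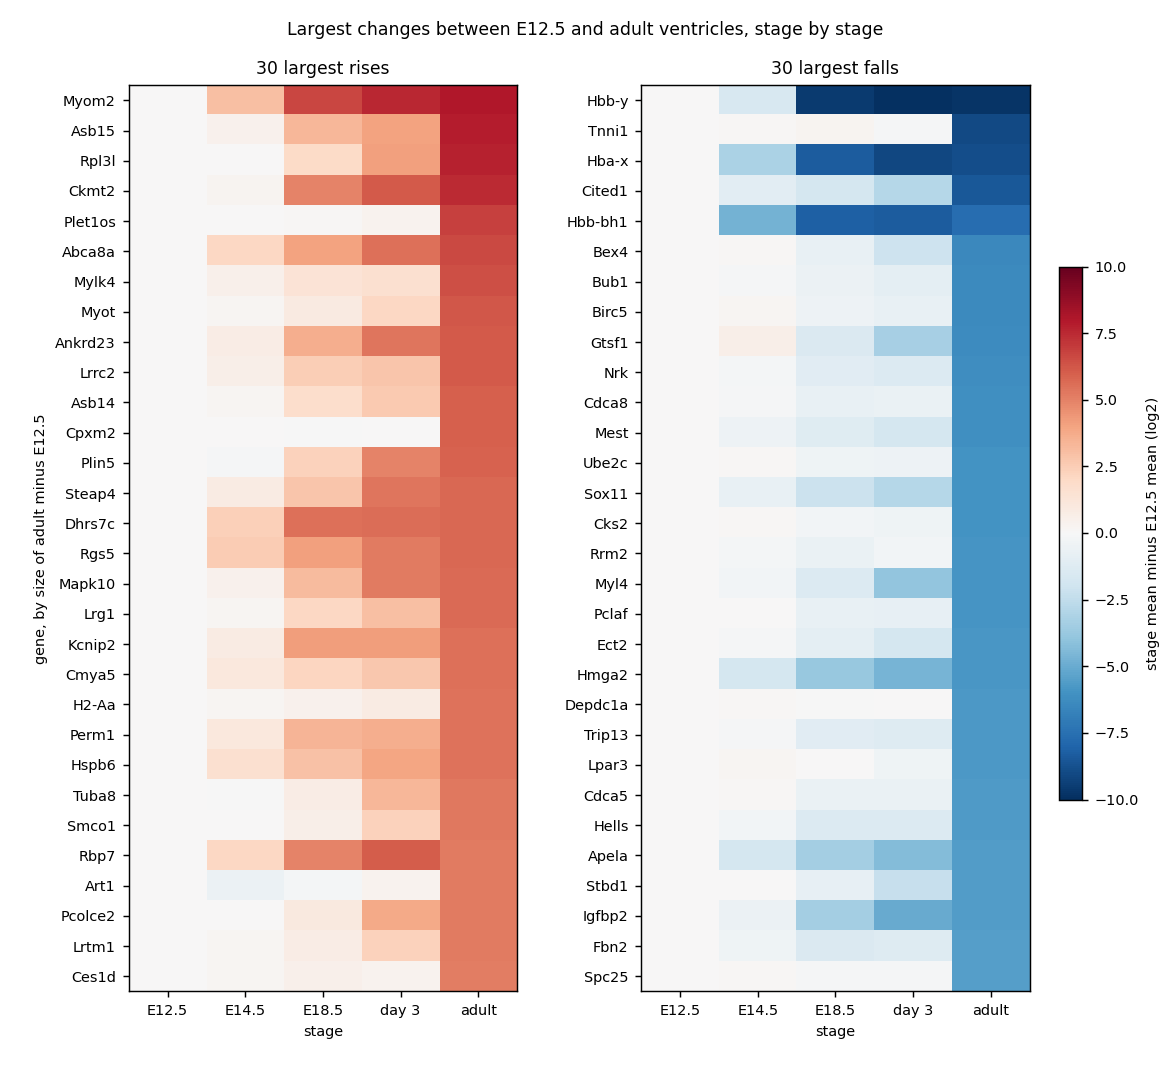
Mean log2 level at each of the 5 ventricle stages minus the E12.5 mean, 1 row per gene, for the 30 largest rises and the 30 largest falls (red higher, blue lower than at E12.5). The interval with over 50% of the change lies between day 3 and the adult for 12 rises and 22 falls, whereas Hbb-y, Hba-x and Hbb-bh1 were at their adult level by E18.5.

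To place a change, the interval between neighbouring stages was called with the same fit, and a change was placed in an interval that was called in the same direction and held over 50% of it. Background calls were 7.18% of genes upward and 6.09% downward from E12.5 to E14.5, 11.8% and 18.7% from E14.5 to E18.5, 9.94% and 10.3% from E18.5 to day 3, and 22.3% and 26.4% from day 3 to the adult. Of the 1628 rises of at least 2-fold, 69 were placed between E12.5 and E14.5, 185 between E14.5 and E18.5, 96 between E18.5 and day 3 and 744 between day 3 and the adult, while 534 had no such interval. Of the 2447 falls, 51, 241, 65 and 1330 were placed in those intervals in that order, and 760 had none. Shares are of the net change, and 441 of these 4075 genes also had a called interval against it. The last interval held 45.7% of the rises and 54.4% of the falls. Under housekeeping scaling the balance turned round, with more rises than falls placed in it (counts at the end). That interval is also the longest, and no sample lies within it. Among the 30 largest changes, 12 rises and 22 falls were placed in it. The count called between E12.5 and E14.5 rested partly on 1 replicate, since it was 2415 genes in all and 1417 without E12.5 replicate 2.

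**Figure D2:**
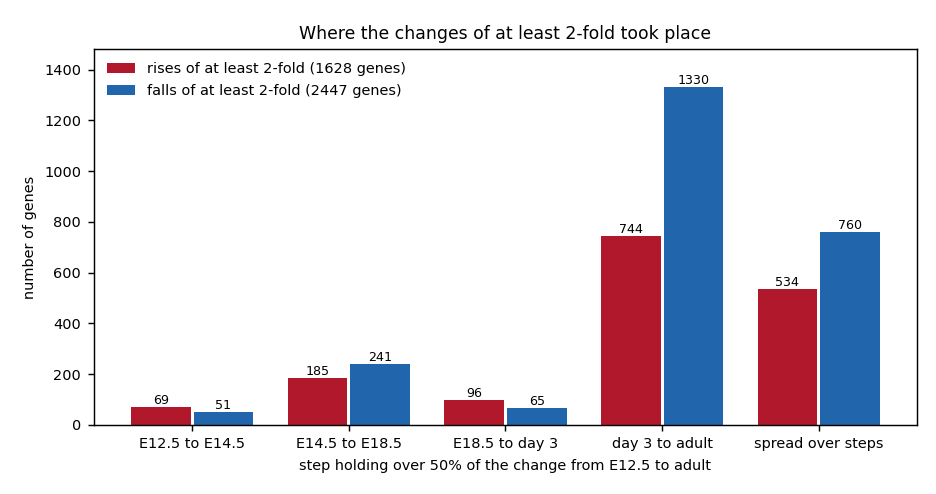
Number of genes changed by at least 2-fold, by the interval that held over 50% of the change, for rises and falls separately. The interval from day 3 to the adult held 744 rises and 1330 falls, whereas under housekeeping scaling it held more rises than falls. No such interval was found for 534 rises and 760 falls (labelled spread over steps).

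Genes of the contractile apparatus changed mainly by exchange of isoforms. Of 13 fetal isoforms measured, which include smooth muscle and skeletal forms, 9 fell, 1 rose (Myl1) and 3 were not called, with a median of -2.29 (4 higher and 8 lower under housekeeping scaling). Of 10 adult cardiac isoforms 8 rose, with a median of 0.48, and Myl2 and Actc1 were not called. The embryonic troponin I, Tnni1, the slow skeletal form that the fetal heart uses, read 14.22, 14.17 and 14.23 at E12.5 and 5.01, 5.00 and 5.51 in the adult. The stages lay far apart and the adult values were at the level of the median probe set, so that the difference of -9.03 ± 0.19 is a lower bound of the loss. Nearly all of it came late, since Tnni1 still stood at 14.13 at day 3. Its adult counterpart Tnni3 had already climbed before birth, from 13.02 at E12.5 to 14.20 at E18.5, and its adult level was 14.64. In the newborn Tnni1 and Tnni3 both read above 14.

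The myosin heavy chains changed earlier. Myh7, the slow beta chain, read 14.51, 14.497 and 14.32 at E12.5 and 11.03, 11.84 and 11.10 in the adult, and Myh6, the fast alpha chain of the adult mouse ventricle, read 12.23, 12.39 and 12.09 at E12.5 and 14.97, 14.85 and 14.90 in the adult. Neither pair of stages overlapped, with differences of -3.12 ± 0.18 for Myh7 and 2.67 ± 0.12 for Myh6. The rise of Myh6 ran from E14.5 (11.72) to E18.5 (13.82), before birth, whereas Myh7 was level up to E18.5 (14.48) and dropped between E18.5 and day 3 by 2.12 and again afterwards. The slow troponin T, Tnnt1, fell by 3.44 on the log2 scale, with 12.94 at E14.5, 10.56 at E18.5 and an adult 9.45. The cardiac Tnnt2 differed by 0.35 ± 0.13, a call lost without adult replicate 2 (0.34) and with its most variable probe set (0.30). Differences of its 3 probe sets ran from 0.30 to 1.59, and 2 were called higher. The fast skeletal troponin I, Tnni2, fell by 2.97, but its probe sets moved in opposite directions.

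The atrial light chains also fell in the ventricle. Myl4, the atrial and embryonic ventricular essential light chain, read 14.09, 14.11 and 14.12 at E12.5 and 5.997, 8.97 and 9.61 in the adult, and Myl7, the atrial regulatory chain, read 14.003, 14.09 and 14.16 at E12.5 and 6.06, 9.47 and 10.31 in the adult. The stages did not overlap, but the adult values spread over more than 3 units, with replicate 1 the lowest, and adult right ventricle 3 stood at 12.43 in Myl4 and 12.86 in Myl7. Both chains stepped down gradually, Myl4 from 13.85 at E14.5 to 12.70 at E18.5 and 10.20 at day 3. The fitted falls were 5.91 for Myl4 and 5.47 for Myl7 on the log2 scale, or -6.98 and -6.43 without adult right ventricles 2 and 3. Of 15 atrial markers 10 fell, 2 rose and 3 were not called, or 7 were lower and 3 higher under housekeeping scaling. Their mean lay between 9.13 and 9.40 in the E12.5 arrays and between 7.05 and 9.16 in the adult ones. Sln, the atrial inhibitor of the calcium pump, differed by -0.03 ± 0.53 and was not called, but was called at -1.29 (limma adjusted p = 0.0137) without those 2 arrays.

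Genes of the structural scaffold of the fibre rose over a broad front. Of 25 measured Z-disc and M-band genes 20 rose, 3 fell and 2 were not called, with a median of 0.85. Myom2, the M-protein that ties myosin filaments in the M-band, read 6.23, 5.76 and 5.28 at E12.5 and 13.88, 13.81 and 13.52 in the adult, a rise of 7.98 ± 0.21 from near the level of the median probe set, spread over E12.5 to E18.5 (8.78 at E14.5, 12.46 at E18.5). Tcap, the titin cap protein of the Z-disc, read 10.66, 10.49 and 10.55 at E12.5 and 13.79, 13.83 and 13.47 in the adult, and most of its rise of 3.13 ± 0.14 followed day 3 (11.88). Myot, the Z-disc protein myotilin, followed the same late course, with 6.06 in the newborn and an adult 10.27. The calcineurin-binding Z-disc proteins parted: Myoz2 rose by 2.23 ± 0.16 and Myoz1 fell by 2.55. Asb15, an adaptor of ubiquitin ligases found in muscle, rose from 3.27, 3.50 and 3.30 to 11.22, 11.12 and 11.19, and its relative Asb14 from 3.28 to 9.25. Rpl3l, a ribosomal protein restricted to striated muscle, read 4.17, 4.03 and 4.08 at E12.5 and 11.73, 11.68 and 12.04 in the adult, rising by 7.72 ± 0.13 over all intervals after E14.5.

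**Figure D3:**
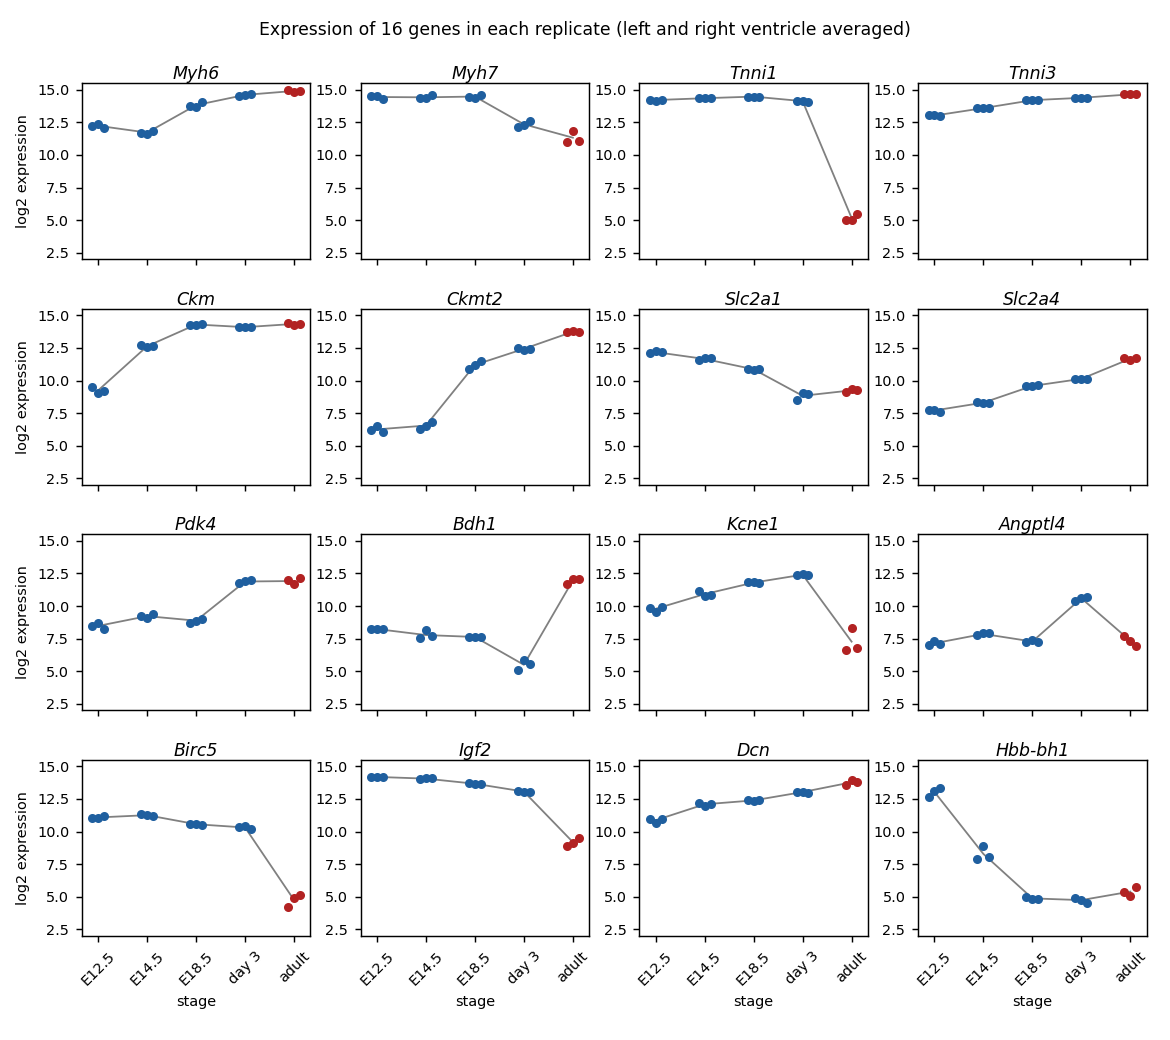
Log2 level of selected genes at each ventricle stage, with 1 point per replicate and a line through the means. Tnni1 stayed above 14 up to day 3 and read 5.00 to 5.51 in the adult, whereas Myh6 had risen by E18.5.

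Genes of excitation and calcium handling rose more often than they fell. Of 28 calcium handling genes 18 rose, 6 fell and 4 were not called, with a median of 1.09. Atp2a2, the calcium pump of the sarcoplasmic reticulum, rose by 1.17 ± 0.08 and its regulator Pln by 1.33 ± 0.14. Ryr2, the calcium release channel, read 9.51, 9.67 and 9.38 at E12.5 and 12.78, 12.60 and 12.67 in the adult, a rise of 3.16 ± 0.15 that set in after E14.5 (10.83 at E18.5) and went on after day 3. Hrc, a calcium-binding protein of the reticulum, rose by 3.04 ± 0.11, Tmem38a, a potassium channel of the same membrane, by 3.22 ± 0.14, and S100a1, a calcium sensor that enhances contraction, by 3.74 ± 0.23. Casq1, the skeletal calsequestrin, fell by 2.29, and Cacna1h, a T-type calcium channel of the embryonic heart, by 3.13.

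Of 22 ion channel genes 17 rose, 2 fell and 3 were not called, with a median of 1.35. Kcnip2, the accessory subunit of the transient outward potassium current, read 6.44, 6.90 and 6.65 at E12.5 and 12.31, 12.18 and 12.12 in the adult, and most of its rise of 5.54 ± 0.12 took place between E14.5 (7.46) and E18.5 (10.86). Kcnd2, a pore subunit of that current, rose later, from 7.38 at day 3 to 10.19. Scn4b, a sodium channel beta subunit, likewise stood at 6.25 at day 3 and at 10.41 in the adult. Kcne1, a subunit of the slow delayed rectifier, moved both ways: it rose from 9.79 at E12.5 to 12.40 at day 3 and then fell by 5.13 to 7.27, so that by its end points alone it fell by 2.52.

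Of 16 intercalated disc genes 7 rose, 4 fell and 5 were not called, or 11 were higher and 3 lower under housekeeping scaling. Dsp, the desmosomal plaque protein, rose by 1.304 ± 0.14, Jup, plakoglobin, by 1.18 ± 0.11, and Gja1, the main ventricular gap junction protein, by 0.44 ± 0.09, which was not called with its most variable probe set (0.36). The embryonic connexin Gjc1 fell by 1.41. Of 11 genes of caveolae and membrane repair 8 rose, with a median of 1.18, and none of the other 3 was called lower. Cavin4, the muscle cavin, read 5.77, 5.74 and 5.92 at E12.5 and 10.83, 10.50 and 10.37 in the adult, a rise of 4.76 ± 0.10 that was largely in place at E18.5 (10.05).

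Genes of oxidative metabolism rose in nearly all its branches, but at different times. These are RNA levels, and protein and metabolic flux were not tested. All 23 measured complex I genes rose, with a median of 0.92, as did all 23 genes of complexes II and III and ATP synthase, with a median of 0.62, and all 17 genes of the citric acid cycle and pyruvate dehydrogenase, with a median of 0.82. For complex I every one of the 23 was called higher between E14.5 and E18.5, against 11.8% of all genes. Ndufb10, an accessory subunit, read 11.67, 11.60 and 11.85 at E12.5 and 13.48, 13.52 and 13.53 in the adult, and had reached 13.05 at E18.5. Ogdh, the oxoglutarate dehydrogenase, rose by 2.28 ± 0.13, and Pdha1, the pyruvate dehydrogenase alpha subunit, by 1.53 ± 0.07.

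Cytochrome c oxidase was the exception, since 10 of 14 genes rose and 3 fell. Its muscle isoforms rose: Cox6a2 by 2.72 ± 0.08, Cox7a1 by 3.30 ± 0.15 and Cox8b by 4.32 ± 0.16. The counterparts made in all tissues fell for Cox6a1 (-1.02 ± 0.05) and Cox8a (-1.202 ± 0.06), while Cox7a2 rose by 0.21 ± 0.05. The third, Cox7c, was read from a dim probe set (-0.63 ± 0.23). Its call was lost under housekeeping scaling (-0.11), in the right ventricle alone (-0.49), without adult replicate 1 (-0.52) and without adult left ventricle 3 (-0.45). Cox8b read 9.82, 9.74 and 10.08 at E12.5 and 14.15, 14.24 and 14.20 in the adult and had climbed by E18.5 to 13.41, whereas Cox6a1 still stood at 14.52 at day 3.

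Genes of fatty acid uptake and oxidation rose in 30 of 31 cases, with a median of 1.91, and Cpt1a, the liver-type carnitine palmitoyltransferase, was not called (-0.06 ± 0.18, limma adjusted p = 0.78), but was called at 0.46 under housekeeping scaling. Between E18.5 and day 3, around birth, 28 of the 31 were called higher, against 9.94% of all genes. Ech1, a dienoyl-CoA isomerase of beta oxidation, read 10.95, 10.77 and 11.005 at E12.5 and 14.13, 13.85 and 14.08 in the adult, with 12.15 at E18.5 and 13.55 at day 3. Acadvl, the very long chain acyl-CoA dehydrogenase, rose by 2.71 ± 0.09 and was at its adult level at day 3 (12.89). Cd36, the fatty acid translocase, rose earlier and further, from 8.73 through 10.09, 11.82 and 12.67 to 13.35. Pdk4, the kinase that shuts pyruvate dehydrogenase when fat is burnt, read 8.499, 8.68 and 8.25 at E12.5 and 11.97, 11.67 and 12.12 in the adult, and 3.00 of its rise of 3.44 ± 0.16 took place between E18.5 and day 3.

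Fat storage and release genes rose as well. Of 13 triglyceride genes 12 rose, with a median of 2.11. Plin5, a lipid droplet coat protein of oxidative tissue, read 5.45, 5.23 and 5.38 at E12.5 and 11.28, 11.20 and 11.25 in the adult, rising by 5.89 ± 0.11 over E14.5 to day 3, whereas Dgat2, which makes triglyceride, went from 9.37 at day 3 to 11.41. Adipoq, the adipocyte hormone adiponectin, read 3.49, 3.26 and 3.60 at E12.5 and 4.16, 8.41 and 6.81 in the adult. Its adult values were widely spread and replicate 2 was the highest, and the mean of 10 adipocyte markers, which share Cidea, Dgat2 and Lipe with the storage genes, lay between 4.96 and 5.40 in the E12.5 arrays and between 6.29 and 7.80 in the adult ones. The part of adipose tissue in the storage genes was not tested.

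Genes of ketone and branched-chain amino acid use rose unevenly. Of 18 genes 17 rose, with a median of 1.54. Between E14.5 and E18.5, 16 were called higher, against 11.8% of all genes. Between E18.5 and day 3, 10 were called lower, against 10.3% of all genes. From day 3 to the adult 14 were called higher, against 22.3% of all genes. Bdh1, the ketone body dehydrogenase, read 8.26, 8.25 and 8.21 at E12.5, 5.10, 5.88 and 5.53 at day 3 and 11.69, 12.11 and 12.11 in the adult. It fell by 2.13 from E18.5 to day 3 and then rose by 6.47 ± 0.15, the highest values being those of the adult. Aldh6a1, an enzyme of valine breakdown, rose by 2.18 ± 0.08, and Bckdha, a subunit of the branched-chain dehydrogenase, by 2.38 ± 0.09.

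Glycolysis was divided. Of 25 genes of glucose uptake and glycolysis 12 rose, 11 fell and 2 were not called, or 14 were higher and 8 lower under housekeeping scaling. The transporters were exchanged. Slc2a1, the basal glucose transporter, read 12.10, 12.28 and 12.16 at E12.5 and 9.11, 9.38 and 9.25 in the adult, a fall of 2.93 that was complete at day 3 (8.83). Slc2a3, the high-affinity transporter of embryonic and neural cells, fell by 4.38, and the insulin-responsive Slc2a4 rose by 3.97 ± 0.12. Hk2, the muscle hexokinase, rose by 1.87 ± 0.13, Pfkm, the muscle phosphofructokinase, by 2.98 ± 0.10, and Hk1 differed by -0.02 ± 0.17 and was not called (0.50 and called under housekeeping scaling). Among pyruvate dehydrogenase kinases Pdk3 fell by 4.17, while Pdk2 and Pdk4 rose by 2.89 ± 0.11 and 3.44 ± 0.16.

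Of 11 genes of creatine and adenylate energy transfer 7 rose and 2 fell, or 9 were higher and none lower under housekeeping scaling. Ckmt2, the sarcomeric mitochondrial creatine kinase, read 6.22, 6.48 and 6.06 at E12.5 and 13.72, 13.77 and 13.73 in the adult. Its rise of 7.48 ± 0.18 took place mainly between E14.5 (6.55) and E18.5 (11.20). Ckm, the cytosolic muscle form, rose by 5.09 ± 0.14 and did so earlier, to 12.63 at E14.5. Slc6a8, the creatine transporter, rose by 2.06 ± 0.10. Mb, the oxygen store myoglobin, read 12.74, 12.21 and 12.39 at E12.5 and 15.05, 15.13 and 15.06 in the adult, ending near the top of the scale. Of 22 oxygen handling and antioxidant genes 18 rose, among them Gstk1, a glutathione transferase, by 4.10 ± 0.13, and Egln3, an oxygen-sensing prolyl hydroxylase, by 3.14 ± 0.11.

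**Figure D4:**
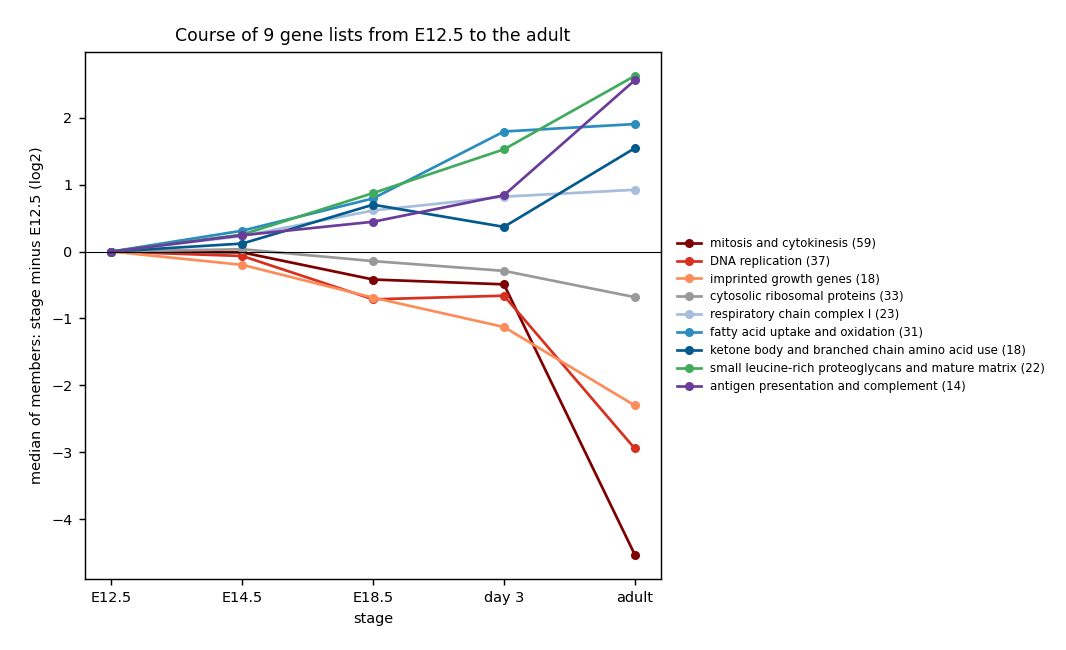
Median log2 difference from E12.5 over the measured genes of selected groups, at E14.5, E18.5, day 3 and in the adult. Mitosis genes had a median of -0.49 at day 3 and -4.53 in the adult, while fatty acid genes had reached 1.79 of their adult 1.91 at day 3.

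Of 26 metabolic and nuclear receptor regulators 19 rose, 2 fell and 5 were not called. Ppara, the receptor that drives fatty acid genes, read 5.92, 5.94 and 5.92 at E12.5 and 9.03, 8.90 and 9.21 in the adult, with 8.29 at E18.5. Rxrg, a retinoid X receptor, rose by 4.11 ± 0.15, and Perm1, a muscle regulator of oxidative genes, by 5.43 ± 0.18. Esrra, the oestrogen-related receptor alpha, rose by 1.37 ± 0.11, and Esrrg was not called (0.11 ± 0.12), but was called higher under housekeeping scaling (0.63) and with the mean of its probe sets (0.23). Ppargc1a, the PGC-1 alpha coactivator, differed by 0.34 ± 0.15, with probe sets that disagreed in direction. That call was lost with the replicate block (adjusted p = 0.0524, limma), with the mean of the probe sets (0.19), on either side alone and without 1 replicate for 5 of the 6 replicates. Thra, the main thyroid hormone receptor of the heart, was not called (-0.25 ± 0.14). It was called higher, at 0.62, with the mean of its probe sets. With the same difference of -0.25 it was called lower in fits of E12.5 and the adult only, of the 5 stages from E12.5 and of single arrays. Thrb differed by 0.33 ± 0.12. Its call was lost in the left ventricle alone and without E12.5 replicate 2 (0.24 in each) or adult replicate 3 (0.23). Of 15 clock genes 9 rose and 4 fell, or 11 were higher and none lower under housekeeping scaling. Their replicate values spread within the adult. Dbp, a clock output factor, read 10.49, 9.65 and 8.02. Arntl, the core activator, read 8.32, 8.99 and 9.58, in the opposite order across the 3 replicates. The time of day of collection is not stated in the labels.

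Cell division genes fell far, and late. All 37 measured DNA replication genes fell, with a median of -2.94, against 32.6% of all genes. Of 59 genes of mitosis and cytokinesis 57 fell, with a median of -4.53, Kif15 was higher by 0.37 (0.32 and not called in the left ventricle alone) and Kif14 was not called. The mean of the mitosis genes lay between 9.44 and 9.55 in the 6 E12.5 arrays and between 5.09 and 5.55 in the 6 adult arrays. Between E14.5 and E18.5, 42 mitosis genes were called lower, against 18.7% of all genes, but by small amounts. All 56 mitosis genes that changed by at least 2-fold were placed between day 3 and the adult. For DNA replication 33 of 34 were placed there, against 54.4% of all falls of at least 2-fold. At day 3 the median was still within 0.49 of E12.5 for mitosis and within 0.66 for replication.

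Promoter windows of 4 strongly reduced genes are shown, because genes of mitosis and of DNA replication moved together and differ in the letters near their starts. They were chosen to hold the letters, as the 2 largest falls of each list with such a window. The larger falls Bub1 and Birc5 had windows without the CCAAT and TTTGAA pair, Rrm2 had one without TTCCCGC or TTGGCGC, and a further window of Uhrf1 lacked both. Each window runs from 250 bases before to 50 bases after the start in RefSeq on GRCm38.p6, 5′ to 3′ on the gene's strand. Capitals mark, in the mitosis genes Cdca8 (chr4:124936868-124937167, minus strand) and Ube2c (chr2:164769679-164769978, plus strand), CCAAT and TTTGAA on either strand. In the replication genes Cdc6 (chr11:98907901-98908200, plus strand) and Uhrf1 (chr17:56303087-56303386, plus strand), capitals mark TTCCCGC and TTGGCGC on either strand.
Cdca8: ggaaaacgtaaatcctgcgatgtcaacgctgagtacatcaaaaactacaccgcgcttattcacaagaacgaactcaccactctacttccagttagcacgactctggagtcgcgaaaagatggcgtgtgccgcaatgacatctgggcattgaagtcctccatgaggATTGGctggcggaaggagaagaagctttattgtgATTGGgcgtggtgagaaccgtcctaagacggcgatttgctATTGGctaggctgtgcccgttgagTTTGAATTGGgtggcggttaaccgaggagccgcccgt
Ube2c: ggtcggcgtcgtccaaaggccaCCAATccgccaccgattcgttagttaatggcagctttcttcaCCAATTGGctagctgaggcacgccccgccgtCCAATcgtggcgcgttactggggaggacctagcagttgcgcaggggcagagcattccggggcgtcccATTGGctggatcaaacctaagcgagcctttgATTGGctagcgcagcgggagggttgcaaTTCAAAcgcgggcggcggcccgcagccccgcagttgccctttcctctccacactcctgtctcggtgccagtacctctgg
Cdc6: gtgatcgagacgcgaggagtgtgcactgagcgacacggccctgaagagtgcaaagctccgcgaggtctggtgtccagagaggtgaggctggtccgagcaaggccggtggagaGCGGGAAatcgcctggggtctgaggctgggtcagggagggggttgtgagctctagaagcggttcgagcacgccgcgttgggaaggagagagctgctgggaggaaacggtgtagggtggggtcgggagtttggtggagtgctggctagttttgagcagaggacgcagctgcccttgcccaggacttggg
Uhrf1: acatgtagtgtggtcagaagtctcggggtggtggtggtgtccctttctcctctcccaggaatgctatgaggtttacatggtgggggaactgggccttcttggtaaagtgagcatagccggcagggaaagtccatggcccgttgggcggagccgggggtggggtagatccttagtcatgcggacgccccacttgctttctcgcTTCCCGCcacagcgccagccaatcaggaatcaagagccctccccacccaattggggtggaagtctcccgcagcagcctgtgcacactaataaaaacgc
CCAAT is the box bound by NF-Y, TTTGAA the core of the cell cycle homology region bound by MuvB complexes, and TTCCCGC and TTGGCGC are forms of the E2F site. Both CCAAT and TTTGAA were present in 62.3% of 53 windows of mitosis genes, 8.33% of 36 windows of replication genes and 5.23% of 18109 windows of measured genes. TTCCCGC or TTGGCGC was present in 52.8% of replication windows, 22.6% of mitosis windows and 9.86% of all. For comparison, AAGGTCA, the half-site of oestrogen-related receptors, was present in 5% of 80 windows of respiratory chain and fatty acid genes and in 3.92% of all. In Cdca8 the TTTGAA overlaps a reversed CCAAT. A match is a description of letters, not a bound site or a cause.

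Cdca8, the borealin subunit of the chromosomal passenger complex, read 11.36, 11.49 and 11.28 at E12.5 and 5.09, 5.29 and 5.29 in the adult, with 10.70 at day 3. Ube2c, the ubiquitin conjugase of the anaphase-promoting complex, read 12.59, 12.54 and 12.67 at E12.5 and 6.25, 6.72 and 6.95 in the adult. Bub1, a kinase of the spindle checkpoint, fell by 6.40 and Birc5, survivin, by 6.33, from 9.28 and 10.31 at day 3 to 3.86 and 4.75. In each of these genes the adult values were low in all 3 replicates. Mki67, the proliferation antigen, read 10.28, 10.36 and 10.19 at E12.5 and 5.55, 5.33 and 5.96 in the adult, and Top2a, topoisomerase II alpha, fell by 5.35, with probe sets that disagreed in direction. Cdc6, which loads the replicative helicase, read 8.17, 8.31 and 8.34 at E12.5 and 3.63, 3.41 and 3.55 in the adult, Mcm5, a helicase subunit, fell by 4.43, and Uhrf1, which maintains DNA methylation at the fork, fell by 4.53. Rrm2, the ribonucleotide reductase subunit that limits nucleotide supply, read 12.39, 12.55 and 12.30 at E12.5 and 6.03, 7.09 and 6.32 in the adult and stood at 12.17 at day 3, against 12.22 at E14.5.

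Regulators of the G1 phase changed less. Of 30 cyclins, E2F factors and inhibitors 22 fell, 4 rose and 4 were not called, or 19 were lower and 8 higher under housekeeping scaling. E2f8 and E2f7, the repressor E2Fs, fell by 3.53 and 3.21, Ccne2 by 3.56 and the pocket protein Rbl1 by 3.17, with disagreeing probe sets for Rbl1. Ccnd1, a D-type cyclin, fell by 0.57, which was -0.05 and not called under that scaling, and Ccnd2 by 1.72. Cdkn1c, an imprinted cell cycle inhibitor, fell by 4.64, from 12.29 at E14.5 to 9.73 at day 3, when most division genes were near their E12.5 level. Chromatin genes of dividing cells fell with them: 17 of 19, including Hmgb2 by 4.72, the polycomb methyltransferase Ezh2 by 3.64 and the lamin Lmnb1 by 3.97, while Ezh1 and Lmna rose, though Lmna was not called with its most variable probe set (0.42).

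Fetal growth genes also fell. Of 18 imprinted genes 13 fell, with a median of -2.30, Dcn and Impact rose and 3 were not called, or 13 were lower and 4 higher under housekeeping scaling. Igf2, the fetal growth factor, read 14.21, 14.16 and 14.19 at E12.5 and 8.92, 9.16 and 9.51 in the adult, and most of the fall of 4.99 followed day 3 (13.07). Mest fell by 6.13, Plagl1, a factor that controls a network of imprinted genes, by 4.80, Peg3 by 4.61 and Dlk1 by 3.38. Of 9 oncofetal genes 8 fell, or 5 were lower and 1 higher under that scaling. Hmga2, a chromatin protein of growing embryonic tissue, read 10.62, 10.68 and 10.62 at E12.5 and 4.55, 4.74 and 5.18 in the adult and fell earlier, to 8.92 at E14.5 and 6.86 at E18.5. Trim71 was low from E14.5 on, at 4.58 against 6.02 at E12.5. Igfbp2, an IGF-binding protein, fell by 5.57, mostly between E14.5 (9.25) and day 3 (4.82).

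Among 32 cardiac transcription factors 17 fell, 7 rose and 8 were not called, a split that turned to 7 lower and 12 higher when the arrays were scaled to housekeeping genes. Hey2, a Notch target of the compact ventricle, read 10.12, 10.12 and 10.19 at E12.5 and 5.45, 5.86 and 5.78 in the adult, a fall of 4.45 that began between E18.5 (10.14) and day 3 (8.52). Cited1, a transcription coactivator, read 13.10, 13.21 and 13.27 at E12.5 and 4.66, 4.62 and 4.91 in the adult, falling by 8.46, with 10.32 at day 3. Sox11, a factor of embryonic progenitors, fell by 5.96 and Mycn, a driver of embryonic myocyte growth, by 3.42, with disagreeing probe sets for Mycn. The core factors were steadier in the probe sets used: Gata4 was not called (-0.12 ± 0.14, or 0.40 and called under that scaling). Nkx2-5, Tbx20 and Tbx5 fell by 0.54, 0.67 and 0.40, but under that scaling the differences were -0.02, -0.15 and 0.12 and none of the 3 was called. All 3 probe sets of Tbx20 were called lower without that scaling, and the one used had the smallest fall, the largest being -1.45. Of 52 signalling genes 27 fell, 13 rose and 12 were not called, and with housekeeping scaling 18 were lower and 22 higher. Fgf16, a growth factor of heart muscle, rose by 3.32 ± 0.12, mostly by day 3 (6.51), Fgf1 rose by 3.04 ± 0.20, and Bmp7 and Sfrp1 fell by 2.73 and 3.60.

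Of 17 genes of natriuretic peptides and other cardiac hormones 7 rose, 4 fell and 6 were not called, or 12 were higher and 4 lower under housekeeping scaling. Nppa, the natriuretic peptide of the embryonic ventricle, read 14.25, 14.21 and 13.91 at E12.5 and 11.49, 14.02 and 12.75 in the adult. Adult replicate 2 lay within the range of E12.5, and replicate 1 was the lowest. The fall of 1.37 on the log2 scale became -1.83 without adult right ventricles 2 and 3, and was -0.64 and not called in the right ventricle alone. Nppb was not called (0.26 ± 0.23), but was called higher under housekeeping scaling (0.78) and without adult left ventricle 3 (0.70), and Corin, the protease that activates the peptides, rose by 2.28 ± 0.16. Agtr1a, the angiotensin receptor, rose by 2.10 ± 0.14.

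Matrix genes of the embryonic wall mostly fell. Of 26 cardiac jelly and embryonic matrix genes 16 fell, 2 rose and 8 were not called, with a median of -1.22 (15 lower and 7 higher under housekeeping scaling). Hapln1, which links hyaluronan to proteoglycans in the cardiac jelly, read 8.43, 9.26 and 9.08 at E12.5 and 3.45, 3.96 and 3.46 in the adult. Its fall of 5.30 was early, with 6.16 at E14.5 and 4.33 at E18.5. Vcan, the proteoglycan versican, fell by 2.84, with disagreeing probe sets, Fn1, fibronectin, by 3.06 and Fbn2, the fetal fibrillin, by 5.55. The last pair fell late, since Fn1 stood at 10.86 and Fbn2 at 8.98 at day 3. Of 25 collagen genes 14 fell, 7 rose and 4 were not called. Col9a1 fell by 4.42, Col13a1 by 3.56 and Col23a1 by 3.72, while Col4a4, a basement membrane chain, rose by 2.78 ± 0.18.

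Of 22 genes of small leucine-rich proteoglycans and mature matrix 19 rose, 1 fell and 2 were not called, with a median of 2.62. Dpt, dermatopontin, which organises collagen fibrils, read 6.09, 6.57 and 6.40 at E12.5 and 11.09, 11.91 and 11.42 in the adult, and most of the rise of 5.12 ± 0.23 was over by E18.5 (11.09). Dcn, decorin, rose by 2.91 ± 0.29, Prelp, a leucine-rich repeat proteoglycan, by 4.02 ± 0.20, and Pcolce2, which enhances procollagen processing, by 5.17 ± 0.21, mainly between E18.5 (5.38) and day 3 (8.14). Cilp, a matrix protein of cartilage and fibroblasts, read 3.45, 3.49 and 3.44 at E12.5 and 5.56, 9.03 and 5.91 in the adult, so that its rise of 3.37 ± 0.47 leaned on replicate 2 and was 2.67 without adult right ventricles 2 and 3. Of 17 fibroblast markers 10 rose, 3 fell and 4 were not called, and their mean was 8.35 to 8.81 in the E12.5 arrays, 9.61 to 9.93 in 5 adult arrays and 10.89 in adult right ventricle 2. Postn, periostin of activated fibroblasts, fell by 1.64, or by 2.12 without those arrays, and had stood at 12.84 at day 3. The call was lost without adult replicate 1 (-1.11) and without adult left ventricle 2 (-1.29). The part of cell number in the matrix genes was not tested.

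Of 15 epicardial markers, genes of the outer layer of the heart, 11 fell, 1 rose and 3 were not called, or 10 were lower and 3 higher under housekeeping scaling. Tbx18, an epicardial factor, read 10.17, 10.27 and 10.20 at E12.5 and 6.16, 6.92 and 6.73 in the adult, a fall of 3.61 over all intervals. Bnc1, basonuclin 1 of the same layer, fell by 3.04 and Krt19, a keratin, by 2.26. The list mean ranged from 8.34 to 8.74 in the E12.5 arrays and from 6.18 to 7.92 in the adult arrays.

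Vessel genes rose on the whole. Of 30 endothelial and endocardial markers 17 rose, 6 fell and 7 were not called (22 higher and 2 lower under housekeeping scaling). Single changes ran from -2.29 to 4.98, and the members of this list named here all rose. The list mean was 8.06 to 8.26 in the E12.5 arrays and 9.02 to 9.23 in the adult ones. Gpihbp1, which anchors lipoprotein lipase on capillaries, read 6.62, 5.97 and 6.19 at E12.5 and 11.48, 11.002 and 11.23 in the adult. The rise of 4.98 ± 0.20 had taken place by E18.5 (11.06). Fabp4, the capillary fatty acid binding protein, rose by 4.08 ± 0.67, with 9.61 at E12.5 and 12.84 at E14.5, and Aqp1, a water channel, by 3.17 ± 0.15. The endothelial and endocardial median stood at 0.95 at day 3 and at 0.58 in the adult. Of 16 smooth muscle and pericyte markers 11 rose and 4 fell. Rgs5, a pericyte regulator of G protein signals, rose by 5.71 ± 0.12 and Higd1b by 4.01 ± 0.15, mostly before birth, and Myh11, smooth muscle myosin, by 3.99 ± 0.20 after day 3 (5.34). Cnn1, calponin, and Acta2, smooth muscle actin, which embryonic heart muscle also makes, fell by 5.03 and 1.33. Only 1 of the 3 probe sets of Acta2 was called, and their differences ran from -1.33 to 0.16.

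Immune genes rose together, late. Of 33 leukocyte markers 29 rose and 4 were not called, against 34.4% of all genes. Of the 19 that changed by at least 2-fold, 16 were placed between day 3 and the adult, against 45.7% of all such rises. The mean of the 33 markers was 6.18 to 6.47 in the E12.5 arrays and 7.47 to 7.97 in the adult ones. Cd163, a scavenger receptor of resident macrophages, read 3.04, 3.02 and 3.18 at E12.5 and 7.78, 7.55 and 7.55 in the adult, with 3.69 at day 3. Ptprc, the pan-leukocyte CD45, rose by 2.28 ± 0.19 and C1qa, a macrophage complement gene, by 3.07 ± 0.16. All 14 genes of antigen presentation and complement rose, with a median of 2.56, and 11 of the 13 of at least 2-fold were placed in that interval. H2-Aa, the class II alpha chain, read 4.30, 4.27 and 4.31 at E12.5 and 9.56, 10.31 and 9.33 in the adult, and stood at 5.09 at day 3.

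All 20 interferon-responsive genes rose, with a median of 1.55, and their mean was 6.47 to 6.64 in the E12.5 arrays and 8.13 to 8.37 in the adult ones. Gbp2, an interferon-induced GTPase, read 5.21, 5.17 and 5.17 at E12.5 and 9.29, 9.58 and 9.56 in the adult, a rise of 4.29 ± 0.22 spread over the stages, and Gbp6 rose by 3.61 ± 0.16 after day 3 (6.33). Psmb8, an immunoproteasome subunit, rose by 3.10 ± 0.18. Class I genes rose too: H2-K1 read 9.90, 9.06 and 9.96 at E12.5 and 12.57, 12.78 and 12.73 in the adult, with E12.5 replicate 2 the lowest, and B2m rose by 0.98 ± 0.10. The part of leukocyte number in these values was not tested.

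Of 25 immediate early genes 14 rose, 5 fell and 6 were not called, or 19 were higher and 3 lower under housekeeping scaling. These genes respond to stimuli within minutes. Fos read 7.63, 7.67 and 7.89 at E12.5 and 9.86, 9.59 and 10.51 in the adult, a rise of 2.26 ± 0.25, and Dusp1, a stress-induced phosphatase, rose by 2.27 ± 0.09. Myc fell by 2.01. The time from death to freezing is not stated in the labels, and its part was not tested.

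The embryonic globins were among the largest losses, with Hbb-y, Hba-x and Hbb-bh1 at ranks 1, 3 and 5 of the falls. Their adult values were near the level of the median probe set, so that this order is that of the measured differences only. Hbb-y, the embryonic beta-type globin of primitive red cells, read 14.97, 14.96 and 15.09 at E12.5 and 5.16, 5.28 and 5.07 in the adult, with 13.42 at E14.5 and 5.42 at E18.5. Hba-x, the embryonic alpha-type globin, read 14.09, 14.18 and 14.27 at E12.5 and 5.36, 5.11 and 5.39 in the adult and followed the same course. Hbb-bh1 went first, from 12.62, 13.13 and 13.38 at E12.5 to 7.90, 8.88 and 8.09 at E14.5, where replicate 2 was the highest, the interval that held over 50% of its fall of 7.64. No sample of the adult came near the E12.5 values. Of 13 other red cell genes 8 fell, 1 rose and 4 were not called, but 4 were higher and 4 lower under housekeeping scaling, and their mean was 6.79 to 7.26 in the E12.5 arrays and 5.99 to 6.26 in the adult ones. Slc4a1, the red cell anion exchanger, fell by 4.29, with disagreeing probe sets.

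Markers of neighbouring tissues were also read. Of 17 lung, thymus and liver markers 4 were higher, 2 lower and 11 not called (11 higher and 2 lower under housekeeping scaling), with a mean of 4.96 to 5.58 in the E12.5 arrays and 4.82 to 5.05 in the adult arrays. Of 17 skeletal muscle markers 4 were higher and 6 lower, which turned to 9 higher and 4 lower under housekeeping scaling, and their mean was 5.41 to 5.96 and 5.47 to 5.75. Of 15 valve and outflow markers 4 were higher and 8 lower, or 6 higher and 5 lower under that scaling. Of 16 nerve and Schwann markers 7 were higher and 8 lower, or 8 higher and 6 lower under that scaling, with a mean of 6.61 to 6.77 at E12.5 and 5.91 to 6.20 in the adult. Gap43, a growth cone protein, fell by 4.66.

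Genes of protein synthesis fell moderately. Of 33 ribosomal protein genes 32 fell and Rps16 was not called, with a median of -0.68. Under housekeeping scaling the median was -0.16, with 14 lower and 5 higher. Rps25 read 10.06, 10.00 and 9.95 at E12.5 and 7.46, 7.36 and 7.64 in the adult, and fell by 2.52, while Rps26 fell by 1.13. Of 26 ribosome biogenesis genes 21 fell and 2 rose, or 14 were lower and 8 higher under that scaling. Those that fell include the nucleolar Nop58 by 2.48, Fbl, fibrillarin, by 1.84 and Npm1, nucleophosmin, by 1.79. Eef1a2, the elongation factor form of adult muscle and neurons, rose by 2.41 ± 0.14. Among 17 splicing regulators 7 fell, 4 rose and 6 were not called, and 6 were lower and 8 higher under housekeeping scaling. Rbfox1, a muscle and neuronal splicing factor, rose by 3.61 ± 0.14, while Ptbp1 fell by 1.84 and Mbnl3, the muscleblind of immature muscle, by 4.25.

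Genes of protein turnover rose in the majority. Of 17 autophagy and lysosome genes 15 rose and 2 fell, and of 19 genes of the proteasome and muscle ubiquitin ligases 12 rose, 4 fell and 3 were not called. Under housekeeping scaling 16 and 17 were higher and no member of either list was lower. Trim54, a ligase of the sarcomere, read 7.29, 7.36 and 7.46 at E12.5 and 12.09, 11.66 and 11.83 in the adult, and most of its rise of 4.49 ± 0.12 followed day 3 (8.27). Fbxo32, the ligase atrogin-1, rose by 2.09 ± 0.11 and Pink1, a kinase of mitochondrial quality control, by 2.62 ± 0.11.

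Comparing the end points hid a number of genes that moved and returned. Of the 6003 genes not called between E12.5 and the adult, 732 had both a called rise and a called fall among the 4 intervals, and of the 4075 genes changed by at least 2-fold, 441 had a called interval against the net direction. Beyond both ends by at least 1 unit lay 196 genes, 146 above and 50 below. The genes named next were chosen after their values were seen. Angptl4, an inhibitor of lipoprotein lipase induced by fatty acids, read 6.98, 7.35 and 7.11 at E12.5 and 7.71, 7.35 and 6.95 in the adult, a difference of 0.19 ± 0.14 that was not called (0.71 and called under housekeeping scaling), but it read 10.42, 10.64 and 10.73 at day 3, after a rise of 3.31 ± 0.14. Cpt1a followed a milder form of that course, with 8.87 at E18.5, 10.12 at day 3 and 8.70 in the adult. Acot1, an acyl-CoA thioesterase, stood at 8.39, 10.42 and 6.99 at E12.5, day 3 and in the adult. Mme, the neutral endopeptidase, and Angpt1, a vessel-stabilising ligand, had low points between: Mme fell from 8.07 at E12.5 to 4.99 at E18.5 and stood at 7.75 in the adult. Angpt1 went from 9.77 at E12.5 to 6.72 at day 3 and 9.31 in the adult.

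Few genes changed differently in the left and right ventricle. The change from E12.5 to the adult differed between the sides for 90 of 18193 genes (0.495%) in a limma fit of the left minus right differences, with the left change the higher in 61 and the lower in 29. In 81 of the 90 the sides were further apart at E12.5 than in the adult, and in 80 the adult sides lay within 0.5 of each other. Some adult levels were at or below the median probe set, as in Gtsf1 (left 5.38, right 5.22) and Col9a1 (4.40 and 4.18). Others were near the top of the scale, as in Ckm (14.36 and 14.31). A difference between sides is hard to read at such levels. Rgs5 read 5.75, 6.02 and 5.91 in the left and 8.75, 8.99 and 8.73 in the right ventricle at E12.5, and 13.21, 12.90 and 13.14 and 13.25, 13.07 and 12.85 in the adult. The sides did not overlap at E12.5 and did in the adult, and the left change exceeded the right by 2.96 ± 0.15 (adjusted p = 7.48e-09, limma). Ckm likewise rose further on the left, by 1.62 ± 0.20 (adjusted p = 0.000608, limma), and Col9a1, higher in the right ventricle at E12.5, fell less on the left, by 2.79 ± 0.39. Art1 and Gtsf1 went the other way, by -1.33 ± 0.22 and -2.23 ± 0.30. The count moved with single replicates: it was 23 genes without E12.5 replicate 1, 50 without E12.5 replicate 2, 44 without E12.5 replicate 3 and 220 without adult replicate 3.

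**Figure D5:**
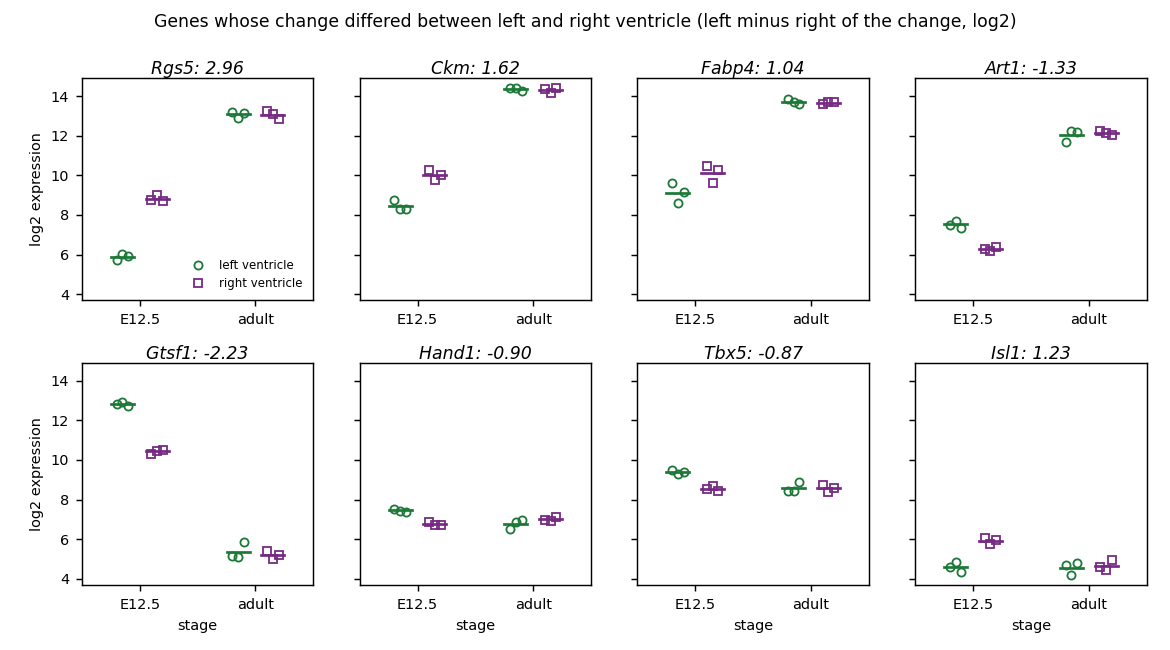
Log2 level in the left ventricle (circles) and right ventricle (squares) at E12.5 and in the adult for 8 genes whose change differed between the sides, with 1 point per array, a line at each mean and the difference of the changes in each title. In Rgs5, Ckm, Fabp4 and Isl1 the right ventricle was higher at E12.5, in Art1, Gtsf1, Hand1 and Tbx5 the left, and the adult sides lay close together in all 8.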

How the data were processed

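RNA of ventricles was hybridised to Affymetrix mouse genome arrays, with 100 ng of total RNA per array per the labels' protocols. The deposited values are log2 intensities that the authors summarised with RMA, per the labels; the RMA version is not given in the sources used here. Of 45101 probe sets, 34945 have 1 gene symbol, 932 several and 9211 none, and 34741 were matched to RefSeq. For each of 18193 genes the brightest probe set, by its mean across 45 arrays, was kept. No 2 arrays held identical values, and array medians of the 12 arrays were 5.38 to 5.46. The number of arrays limits the precision (median SE 0.10).

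Left and right values of a number were averaged, giving 27 values of 9 stages, fitted with limma 3.58.1 in R 4.3.3 (18 residual degrees of freedom) and moderated by eBayes, with contrasts of the adult with E12.5 and between neighbouring stages and Benjamini-Hochberg adjustment at 0.05. Left minus right differences (18) were fitted likewise. Biological triplicates are stated, but replicates of E12.5 are pools and those of the adult single hearts. Counting, figures and motif searches used Python 3.11.15 with Matplotlib 3.10.9, pandas 2.3.3 and NumPy 2.4.6. The fit was also run on simulated data with independent arrays and few changed genes. The real data differ in both, so that run does not give the error rate here.

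Genes named are the 30 largest called rises and falls without overlap, up to 6 called members of largest change per gene list, and a fixed set of marker genes. Predicted genes, clone names and probe sets of several genes were passed over. Genes given as exceptions to a count, those under the side differences and those that moved and returned were chosen after their values were seen. The comparison, members and lists were chosen with earlier results of these data known. Of 1171 list entries 1074 were matched. Cpt1b, H19 and Hcn4 were not analysed here. Alternatives were the model, dim-gene filter, probe set choice, scaling, single sides, thresholds, a replicate block and leaving out replicates or arrays that stand apart.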

Additional observations from a re-analysis of the deposited data

Results flagged for a closer look

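In 13 of the genes named above the change from E12.5 to the adult differed between the left and right ventricle, by a limma fit of the left minus right differences with Benjamini-Hochberg adjustment over 18193 genes. Each value is the left change minus the right change in log2 units. The left change was the higher for Rgs5 (2.96), Col9a1 (2.79), Tnni2 (1.95), Ckm (1.62), Isl1 (1.23), Egln3 (1.202), Fabp4 (1.04), Aqp1 (0.80) and Slc2a1 (0.75). The right change was the higher for Gtsf1 (-2.23), Art1 (-1.33), Hand1 (-0.90) and Tbx5 (-0.87). The right ventricle of E12.5 was higher than the left in Rgs5 (8.75, 8.99 and 8.73 against 5.75, 6.02 and 5.91) and in Ckm (10.28, 9.79 and 10.03 against 8.73, 8.32 and 8.31), and lower in Gtsf1 (10.31, 10.45 and 10.53 against 12.81, 12.92 and 12.72). In Tbx5 the left ventricle was higher at E12.5 (9.51, 9.30 and 9.41 against 8.54, 8.69 and 8.41) and the adult sides read 8.42, 8.43 and 8.87 and 8.74, 8.40 and 8.61. Tnni2, whose adjusted p was 0.0481, lay just inside the threshold. The accuracy of the dissection of the 2 sides was not tested.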

How the results depend on the processing

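The calls between E12.5 and the adult (12190) stayed within 1.5 times under the other model, filter, probe set and single-side settings. Scaling to housekeeping genes gave 12115 rises and 3139 falls, 1338 calls from E12.5 to E14.5, 2200 from E18.5 to day 3 and 13559 from day 3 to the adult, and placed 2228 rises and 651 falls of at least 2-fold in the last interval. Asking for 2-fold as well left 4075 calls, 1628 rises and 2447 falls. A threshold of 0.01 gave 1239 calls from E12.5 to E14.5 and 2145 from E18.5 to day 3, and asking for over 66% of the change placed 488 rises and 812 falls in the last interval. Without 1 replicate at a time the calls from E12.5 to E14.5 ranged from 1417 (without E12.5 replicate 2) to 2558. The count that differed between sides (90) was 21 in a fit of E12.5 and the adult only, 317 with adult replicate 1 alone, a setting chosen after seeing the data, 137 at a threshold of 0.10, and 23 to 220 without 1 replicate.

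Replicate numbers did not pair the stages: same-numbered E12.5 and adult values deviated from their stage means with correlations of 0.07, 0.06 and 0.08. Left and right arrays of the same number deviated from their group means with correlations of 0.27, 0.32 and 0.37 at E12.5. In the adult these were 0.22, 0.33 and -0.10. Whether left and right arrays of a number came from the same hearts was not tested. With the replicate number as a block, 6238 genes rose and 5935 fell, and 87 differed between the sides.

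Of 204 genes named in the text, 30 changed call or direction under any setting. Thra was 0.62 with the mean of its probe sets and 1.07 with the most variable one. At -0.25 it was called lower in fits of E12.5 and the adult only, of the 5 stages from E12.5 and of single arrays. Under housekeeping scaling Angpt1 was 0.068, Cpt1a 0.46, Gata4 0.40, Hand1 0.30, Hk1 0.50, Kif14 0.35, Rps16 0.47 and Tbx5 0.12. Tbx5 was 0.037 in the right ventricle alone, and Sln ranged from -1.22 to 1.15 when 1 replicate or array was left out. Beyond the settings' own construction, the cause was not tested. Small differences near the top and bottom of the array scale are limited by signal over background.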
